A study of Mus musculus with 11 samples.

Results

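Of the minor collagens, 10 genes were followed in Pdgfrb-expressing cells of mouse liver: the fibrillar collagen V genes Col5a1, Col5a2 and Col5a3, the beaded-filament collagen VI genes Col6a1, Col6a2 and Col6a3, the network-forming collagen VIII gene Col8a1, and the fibril-associated genes Col12a1, Col14a1 and Col16a1. They were chosen by symbol from the 27998 genes of the 10x libraries, and all 10 had unique molecular identifiers (UMIs) in each of the 5 libraries.

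Collagen V is built into the same fibrils as collagens I and III and is known for limiting fibril diameter. Collagen VI chains assemble into beaded microfilaments around cells, collagen VIII is a short-chain collagen that forms networks in vessel walls, and collagens XII, XIV and XVI belong to the fibril-associated collagens with interrupted triple helices, which sit on the surface of other fibrils. In injured liver, hepatic stellate cells (HSCs) of the sinusoids, fibroblasts (FBs) of the portal tract and vascular smooth muscle cells (VSMCs) are the mesenchymal cells that make such matrix.

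The study profiled GFP-positive liver cells without CD45 or CD102 staining from Pdgfrb-BAC-eGFP mice, in which a transgene with the Pdgfrb promoter drives GFP. All groups, uninjured ones included, were male carriers on a C57BL/6 background aged 10 to 16 weeks. In the 5 10x libraries, each from 3 pooled mice, protocol 1 (the liver minced and digested with pronase, collagenase B and DNase) was used for uninjured mice and for mice given CCl4 for 6 weeks. Protocol 2 (perfusion with pronase and collagenase D, then a density gradient that enriches HSCs) was used for uninjured mice, mice 72 h after 1 injection of CCl4, and mice given CCl4 for 6 weeks. In 6 plates of full-length Smart-seq2 (SS2) wells, uninjured mice were set beside mice 14 days after bile duct ligation (BDL) or after 6 weeks of CCl4. CCl4 injures hepatocytes around the central vein, and BDL injures the bile ducts of the portal tract.

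The 10x libraries held 5454 to 7310 cells after filters and 25962957 to 86661230 UMIs, with medians of 4299 to 11343.5 UMIs per cell. Between 3.28% and 3.36% of the barcodes of a library also occurred in another library. At least 3 of 5 HSC markers were seen in 99.9%, 98.4% and 99.5% of the cells of the uninjured, 72 h and 6-week protocol 2 libraries, which are called HSCs here. The summed level of these HSC markers was 24589, 4298 and 12068.5 UMIs per 1000000 UMIs (CPM) in the same order, that of 6 FB markers 30.5, 295 and 545 CPM, and that of 5 VSMC markers 594, 1991 and 989 CPM. Protocol 1 cells were split into FBs (4028 uninjured and 2614 at 6 weeks) and VSMCs (1709 and 3034) by which of the latter marker lists was higher. All 10x HSC levels thus come from protocol 2 and all FB and VSMC levels from protocol 1. Where HSCs are set against FBs or VSMCs, cell type and protocol cannot be told apart. No cell of any library had 3 endothelial or Schwann cell markers, and at most 6 cells of a library had 3 leucocyte, cholangiocyte or mesothelial markers, although a protocol 1 cluster of 165 cells, cluster 13, had the mesothelial markers Upk3b and Msln among its leading genes. Cells with 3 hepatocyte markers numbered 11 to 59 per library. Since each 10x condition was 1 library, folds between conditions carry no p-value, intervals are 95% exact intervals of counting error only, and a gene was called higher or lower when it was past 2-fold with at least 10 CPM in 1 of the groups.

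In HSCs 72 h after CCl4, Col5a2, Col6a3, Col8a1 and Col12a1 were past 2-fold higher than in uninjured HSCs, which is 4 of the 9 members with enough UMIs, and no member was past 2-fold lower. Of all 8387 genes tested, 7.07% were past 2-fold higher and 9.54% lower. After 6 weeks, Col6a3 and Col8a1, 2 of 8 members, were past 2-fold higher than in uninjured HSCs and no member was lower, against 2.96% and 1.61% of genes. The median member fold was 1.66 at 72 h and 1.38 at 6 weeks, beside medians over all genes tested of 0.860 and 0.857. Scaling by trimmed mean of M values (TMM) raised every fold by 0.13 and 0.18 on the log2 scale, and the share of called genes that were higher, 42.6% at 72 h, was 54.5% by that scaling. At 6 weeks it was 64.8% by total UMIs and 84.7% by TMM. Both comparisons share the uninjured library, so they are not independent. HSC markers were lower and VSMC and FB markers higher at both times, as given above, and the part of these shifts in the member folds was not tested.

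**Figure D1:**
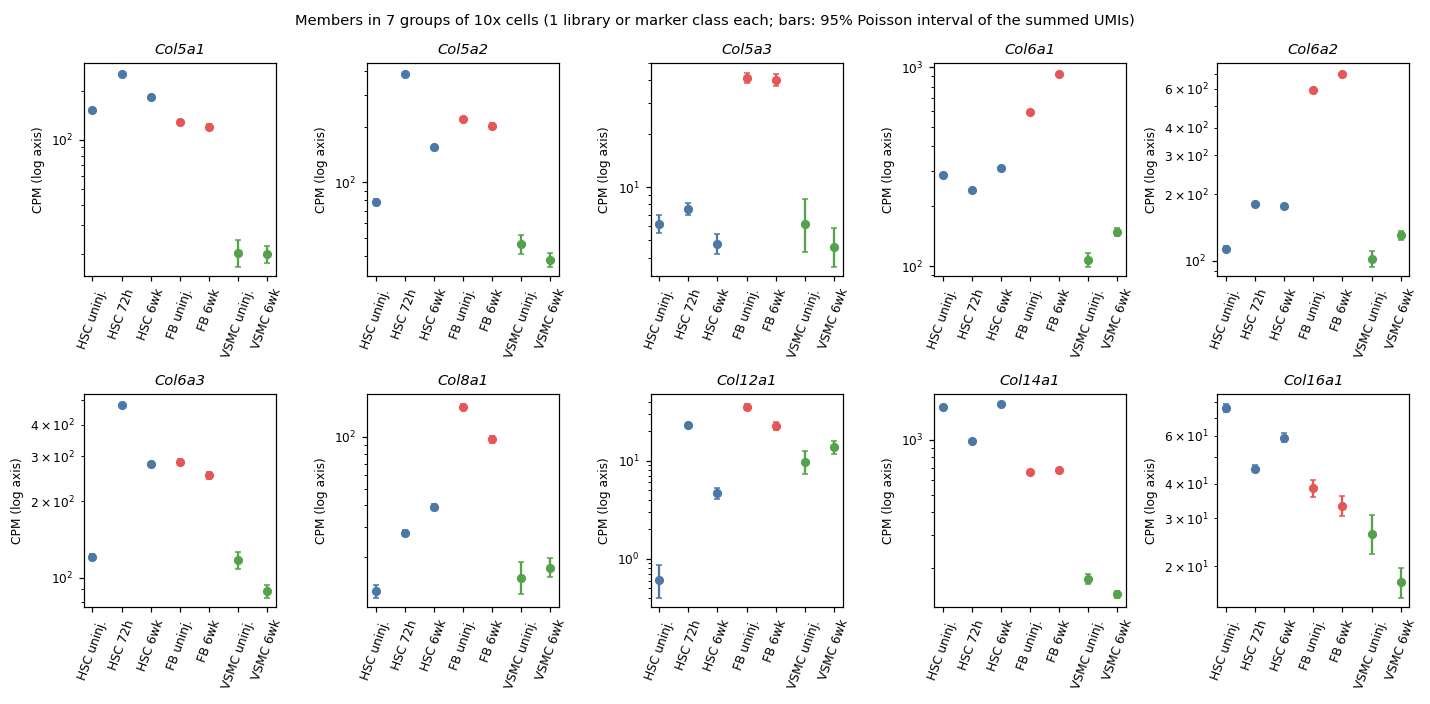
Summed UMIs of each member per 1000000 UMIs (CPM, log axis) in HSCs (blue), FB-marker cells (red) and VSMC-marker cells (green), with 95% Poisson intervals and 1 library or marker class per point. Col6a1, Col6a2, Col5a3 and Col8a1 were highest in FBs, Col5a1, Col5a2, Col6a3, Col14a1 and Col16a1 in an HSC library, and Col12a1 was lowest in uninjured HSCs. HSCs are from protocol 2 and the other cells from protocol 1, so cell type and protocol cannot be told apart.

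Among the collagen V genes, Col5a1 encodes the alpha-1 chain found in nearly all collagen V trimers and lies on the plus strand of chromosome 2 from 27886425 to 28039514 (GRCm38). It stood at 153, 254 and 183 CPM in uninjured, 72 h and 6-week HSCs, at 128 and 120 CPM in uninjured and 6-week FBs, and at 20.2 and 19.9 CPM in VSMCs. HSCs (protocol 2) were above FBs and VSMCs (protocol 1) in the uninjured and 6-week libraries, the times at which all 3 were profiled. The HSC fold was 1.66 (1.62 to 1.71) at 72 h and 1.20 (1.16 to 1.24) at 6 weeks.

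Col5a2, the alpha-2 chain gene on the minus strand of chromosome 1 from 45374321 to 45503282, changed more. Its level was 78.7, 389 and 155 CPM in the HSC libraries, 221 and 203 CPM in FBs and 46.3 and 38.2 CPM in VSMCs. The 72 h level was 4.95-fold (4.78 to 5.12) that of uninjured HSCs, and the share of cells with a Col5a2 UMI went from 38.3% to 90.2%, or from 14.3% to 48.5% when every cell was thinned to 2000 UMIs. At 6 weeks 67.5% of cells had a UMI, or 25.5% when thinned, and the fold was 1.97 (1.89 to 2.05), just under the limit. With TMM it was 2.22, past the limit, and 3 members were called at 6 weeks. By that scaling 4.20% of all genes were past 2-fold higher and 0.762% lower. The ratio of Col5a1 to Col5a2 UMIs, 1.94 in uninjured HSCs, was 0.652 at 72 h and 1.18 at 6 weeks, beside 0.579 and 0.590 in FBs, so the chains changed unequally.

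Col5a3, the alpha-3 chain gene on the minus strand of chromosome 9 from 20770050 to 20815067, was sparse in HSCs, at 6.21, 7.54 and 4.79 CPM, and under the limit for a fold call there. It was also sparse in VSMCs, at 6.17 and 4.61 CPM, and stood at 41.3 and 40.4 CPM in FBs. A Col5a3 UMI was seen in 16.4% of uninjured FBs and in 4.04% of uninjured HSCs, although the median depth of the FBs, 4910.0 UMIs, was below the 6717.5 UMIs of the HSCs.

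The collagen VI genes Col6a1 and Col6a2 lie on the minus strand of chromosome 10, from 76708792 to 76726168 and from 76595762 to 76623630, with 85161 bases between them, while Col6a3 is on the minus strand of chromosome 1 from 90765923 to 90843971. The sequence just upstream of each annotated gene is shown, read 5′ to 3′ on the strand of the gene (RefSeq, GRCm38.p6, chr10:76726169-76726294, chr10:76623631-76623880 and chr1:90843972-90844221). Any link of these sequences to the levels below was not tested. Capitals mark a GC box, searched as GGGCGG on either strand. The letters CCAAT and, for a TATA box, TATAAA were searched on either strand too, and no motif overlapped another.
Col6a1: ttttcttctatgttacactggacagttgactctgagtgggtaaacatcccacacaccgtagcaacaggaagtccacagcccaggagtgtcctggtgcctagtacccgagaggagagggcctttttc
Col6a2: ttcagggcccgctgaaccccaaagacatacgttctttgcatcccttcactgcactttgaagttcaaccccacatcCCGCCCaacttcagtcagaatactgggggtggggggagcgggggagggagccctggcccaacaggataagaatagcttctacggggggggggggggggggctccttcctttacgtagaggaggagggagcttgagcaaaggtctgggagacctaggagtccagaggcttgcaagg
Col6a3: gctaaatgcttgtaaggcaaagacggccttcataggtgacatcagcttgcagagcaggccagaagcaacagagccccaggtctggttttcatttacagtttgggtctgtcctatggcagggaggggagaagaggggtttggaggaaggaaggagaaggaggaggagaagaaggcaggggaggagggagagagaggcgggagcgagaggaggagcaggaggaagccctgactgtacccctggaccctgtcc
Only the Col6a2 stretch held any of these letters, with 1 GC box. Of 32851 such regions of 250 bases, 32.7% held a GC box, 33.8% a CCAAT box and 12.4% a TATA box. The Col6a1 stretch is shorter, at 126 bases, because the RefSeq start lies inside the annotated gene. The bases next to that start were left out and not searched, so the shares for 250 bases are no background for Col6a1. RefSeq entries were found for 7 of the 10 members, and Col5a2, Col12a1 and Col14a1 are named only.

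Col6a1 stood at 286, 241 and 310.3 CPM in uninjured, 72 h and 6-week HSCs, at 598 and 924 CPM in FBs and at 108 and 149 CPM in VSMCs. Col6a2 was at 113, 181 and 177 CPM in HSCs, 591 and 697 CPM in FBs and 102 and 130.1 CPM in VSMCs. Both were thus highest in FBs, and their HSC folds stayed within 2-fold: Col6a1 was 1.19-fold lower (1.16 to 1.21) at 72 h and 1.09-fold higher (1.06 to 1.11) at 6 weeks, and Col6a2 was 1.60-fold (1.55 to 1.65) and 1.57-fold (1.51 to 1.62) higher.

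Col6a3, which encodes the long alpha-3 chain, had another pattern. It was at 121, 479 and 280.2 CPM in HSCs, 286 and 253 CPM in FBs and 117 and 88.2 CPM in VSMCs. The 72 h HSC library was the highest group, 3.97-fold (3.86 to 4.08) over uninjured HSCs, and the fold at 6 weeks was 2.32 (2.25 to 2.40). The share of HSCs with a Col6a3 UMI went from 52.0% to 88.4% at 72 h and 79.1% at 6 weeks.

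The ratio of the chain transcripts also differed. There were 0.422 Col6a3 UMIs per Col6a1 UMI in uninjured HSCs, 1.99 at 72 h and 0.903 at 6 weeks, while in FBs the ratio was 0.479 uninjured and 0.274 at 6 weeks. In cells thinned to 2000 UMIs, all 3 collagen VI genes were seen together in 1.96%, 8.34% and 7.10% of HSCs, in 18.8% and 21.8% of FBs and in 1.23% and 1.20% of VSMCs. The product of the 3 single-gene shares was 1.75%, 5.43% and 4.89% in HSCs. It was 16.9% and 19.7% in FBs and 0.275% and 0.556% in VSMCs.

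Col8a1, on the minus strand of chromosome 16 from 57624258 to 57754737, stood at 12.6, 27.5 and 39.0 CPM in HSCs, 150.4 and 96.8 CPM in FBs and 15.1 and 17.3 CPM in VSMCs. Its HSC fold was 2.19 (2.00 to 2.40) at 72 h and 3.10 (2.82 to 3.40) at 6 weeks, the only called member with a larger fold at 6 weeks than at 72 h. With cells thinned to 2000 UMIs the 72 h fold was 1.90, under the limit. At 72 h, 142 cells (1.94%) had more FB than HSC markers and held 10.5% of the Col8a1 UMIs. At 6 weeks, 38 such cells (0.697%) held 0.687% of them. The number of called members was the same without these cells.

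Col12a1, a fibril-associated collagen gene on the minus strand of chromosome 9 from 79598991 to 79718831, showed the largest member fold. It had 28 UMIs in the uninjured HSC library, a level of 0.604 CPM, and 23.2 CPM at 72 h and 4.65 CPM at 6 weeks, beside 35.3 and 22.7 CPM in FBs and 9.78 and 13.7 CPM in VSMCs. The 72 h level was 38.4-fold (26.5 to 57.9) the uninjured one, and a higher fold was seen in 0.286% of genes tested. The share of HSCs with a UMI was 0.350% uninjured, 18.4% at 72 h and 2.88% at 6 weeks. At 6 weeks the ratio was 7.71 (5.20 to 11.8), but both libraries were under 10 CPM, so no call was made. The cells with more FB than HSC markers held 7.47% of the Col12a1 UMIs at 72 h and 23.5% at 6 weeks.

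Col14a1 and Col16a1 went the other way at 72 h. Col14a1, on the plus strand of chromosome 15 from 55307750 to 55520803, was at 1509, 984 and 1555 CPM in HSCs, 669 and 678 CPM in FBs and 173 and 143 CPM in VSMCs. A Col14a1 UMI was seen in 99.6% of the cells of every HSC library, in 85.5% and 89.4% of FBs and in 28.8% and 32.0% of VSMCs. The HSC level was 1.53-fold lower (1.52 to 1.55) at 72 h and 1.03-fold higher (1.02 to 1.04) at 6 weeks. At 72 h a higher fold than that of Col14a1 was seen in 75.3% of genes tested, whose median fold was 0.860. Col16a1, on the plus strand of chromosome 4 from 130047840 to 130099283, was at 76.1, 45.5 and 59.2 CPM in HSCs, 38.6 and 33.3 CPM in FBs and 26.2 and 17.4 CPM in VSMCs. It was 1.67-fold lower (1.60 to 1.75) at 72 h and 1.29-fold lower (1.22 to 1.35) at 6 weeks. A higher fold than that of Col16a1 was seen in 81.6% of genes tested at 72 h and in 67.8% at 6 weeks. Neither FBs nor VSMCs as a class reached its lowest HSC level, although some protocol 1 clusters did, as given below.

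**Figure D2:**
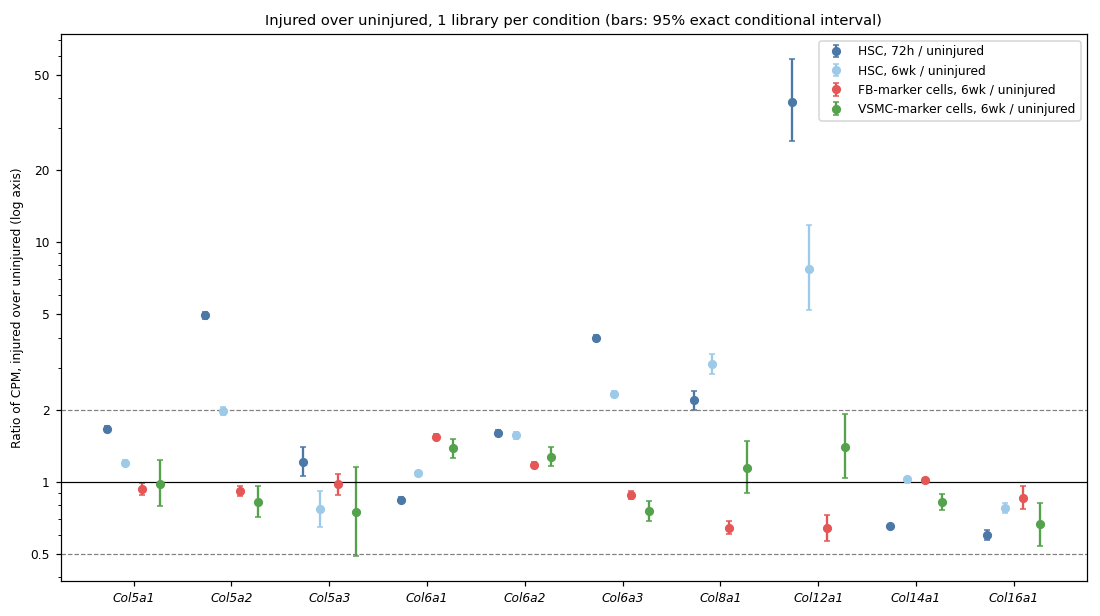
Ratio of CPM in injured over uninjured cells (log axis) for each member in HSCs at 72 h and 6 weeks and in FB-marker and VSMC-marker cells at 6 weeks, with 95% exact intervals of counting error and dashed lines at 2-fold. Col12a1 at 72 h was the largest at 38.4, and no FB or VSMC point passed 2-fold.

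The protocol 1 libraries asked how FBs and VSMCs differed between uninjured mice and mice given CCl4 for 6 weeks. No member passed 2-fold in FBs (0 of 10 in either direction), where 1.54% of genes were higher and 0.486% lower, or in VSMCs (0 of 9), where 2.3% were higher and 0.559% lower. Within that limit, Col6a1 was 1.55-fold (1.51 to 1.58) higher in FBs and 1.38-fold (1.26 to 1.51) higher in VSMCs, and Col6a2 was 1.18-fold (1.15 to 1.21) and 1.28-fold (1.16 to 1.40) higher. Col8a1 and Col12a1 in FBs were 1.55-fold (1.46 to 1.65) and 1.56-fold (1.37 to 1.77) lower. The numbers of cells per FB cluster also differed between the libraries, as given below. The FB levels of Col5a1, Col5a2, Col5a3, Col6a3, Col14a1 and Col16a1 were within 0.861-fold to 1.01-fold of the uninjured ones. In VSMCs, Col16a1 was 1.504-fold lower (1.22 to 1.85), Col6a3 1.33-fold lower (1.21 to 1.46), and Col5a2 and Col14a1 each 1.21-fold lower. Col12a1 at 1.40 (1.04 to 1.92) changed with the setting: it was past 2-fold with cells thinned to 2000 UMIs (2.29) and with VSMCs taken from clusters (2.67).

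Within uninjured protocol 1 cells, 9 of 10 members were past 2-fold higher in FBs than in VSMCs, and none was lower, while 16.1% of 8756 genes were higher and 11.0% lower. The folds, from the levels given above, were 9.96 (8.06 to 12.5) for Col8a1, 6.69 (4.79 to 9.62) for Col5a3, 6.32 (5.26 to 7.67) for Col5a1, 5.79 (5.33 to 6.29) for Col6a2, 5.55 (5.12 to 6.02) for Col6a1 and 4.77 (4.22 to 5.42) for Col5a2. They were smaller for Col14a1 at 3.86 (3.62 to 4.12), Col12a1 at 3.61 (2.76 to 4.82) and Col6a3 at 2.45 (2.26 to 2.65), and Col16a1 was within 2-fold at 1.47 (1.24 to 1.76). The Col12a1 fold was 6.29 with cells thinned to 2000 UMIs. With classes from clusters the folds were 12.5 for Col8a1, 7.28 for Col12a1, 6.84 for Col6a1 and 4.89 for Col14a1. The VSMC level was not even over its clusters: in clusters 1 and 7, which held 877 and 542 uninjured cells, Col5a1 was at 7.95 and 3.75 CPM, Col6a1 at 40.8 and 40.6 CPM and Col14a1 at 87.7 and 88.7 CPM, all below the class as a whole. The classes come from 1 library and were sorted by markers, not by culture or animal. Free RNA in droplets can give FB genes in VSMCs: Dcn and Lum, abundant FB matrix genes, differed by 7.44-fold and 6.51-fold, and the part of free RNA in the VSMC levels was not tested.

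The same question was tested in SS2, in which 2065 of 2304 wells were kept with a median of 445569 reads, and FB, VSMC and HSC wells, 761, 952 and 352 in number, were those whose highest score was for that marker list. There, reads were summed over the wells of 1 class in 1 portion of a plate (1 labelled liver preparation of a condition) and the classes were compared within 6 uninjured portions with edgeR's quasi-likelihood test and Benjamini-Hochberg adjustment. Of 10 members, 7 rose in FBs and none fell, with 8.8% of 12109 genes higher and 8.48% lower. The median member log2 fold change was 2.90, beside -0.07 over all genes. Reads per 1000000 reads (RPM) are not scaled for gene length, so values are compared within a gene.

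Col5a1 ranged from 1145 to 1831 RPM in FBs (median 1338) and from 37.9 to 321 RPM in VSMCs (median 89.6), a log2 fold change of 3.95 ± 0.41 (SE, adjusted p = 0.00046 by edgeR). Each SE here and below was worked back from the test, as the absolute log2 fold change over the square root of its F value. Col5a2 ranged from 424 to 1278 RPM (median 739) and from 74.3 to 419 RPM (median 95.2), with 2.71 ± 0.27 (adjusted p = 0.00035 by edgeR). For Col5a3 the FB range was 74.3 to 162 RPM and the VSMC range 0 to 17.3 RPM, with 6.26 ± 1.16 (adjusted p = 0.0069 by edgeR). The FB and VSMC portions did not overlap for any of these 3 genes. The share of all genes without overlap was not counted, here or below.

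Col6a1 ranged from 1521 to 3122 RPM in FBs and from 158 to 705 RPM in VSMCs (3.11 ± 0.41, adjusted p = 0.0014 by edgeR), and Col6a2 from 1315 to 2074 RPM and from 79.6 to 500 RPM (3.36 ± 0.35, adjusted p = 0.00045 by edgeR). Col6a3 differed less, at 706 to 1468 RPM and 168 to 435 RPM, a log2 fold change of 1.62 ± 0.23 (adjusted p = 0.0021 by edgeR). Col14a1 was at 1438 to 3004 RPM in FBs and 182 to 564 RPM in VSMCs, with 2.44 ± 0.32 (adjusted p = 0.0013 by edgeR). Here too the classes did not overlap.

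The other 3 members were not called. Col8a1 was at 15.0015 to 76.9 RPM in FBs and 0.0793 to 58.9 RPM in VSMCs, with 3.09 ± 0.96 (adjusted p = 0.062 by edgeR). It passed the threshold with DESeq2 (3.20), with classes from clusters (3.89), with wells near the class boundary left out (3.32) and without the uninjured portion of plate 5 (3.73), the one with its highest VSMC level. Col12a1 was at 47.8 to 194 RPM and 3.62 to 175 RPM, with 1.34 ± 0.86 (adjusted p = 0.37 by edgeR), and Col16a1 at 70.6 to 124 RPM and 32.3 to 131 RPM, with 0.38 ± 0.32 (adjusted p = 0.51 by edgeR), and both overlapped between the classes.

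SS2 wells with HSC markers came mainly from a pair of uninjured portions of plate 6, with 154 and 158 wells, which gave levels but no test. Col14a1 was at 4325 and 4570 RPM there and seen in every well, Col5a1 at 1389 and 1333 RPM, inside the range of uninjured FBs, Col6a1 at 675 and 854 RPM and Col16a1 at 133 and 155 RPM. Col12a1 was at 0.0147 and 3.10 RPM with a read in 0.649% and 1.90% of wells, as in uninjured HSCs of the 10x library. Col8a1 differed between the portions, at 38.4 and 6.59 RPM. By the labels, plate 6 alone held HSC preparations, and the other plates held only preparations labelled PF, as the protocol 1 10x libraries were. Where these HSC wells are set against FBs, cell type and preparation cannot be told apart.

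**Figure D3:**
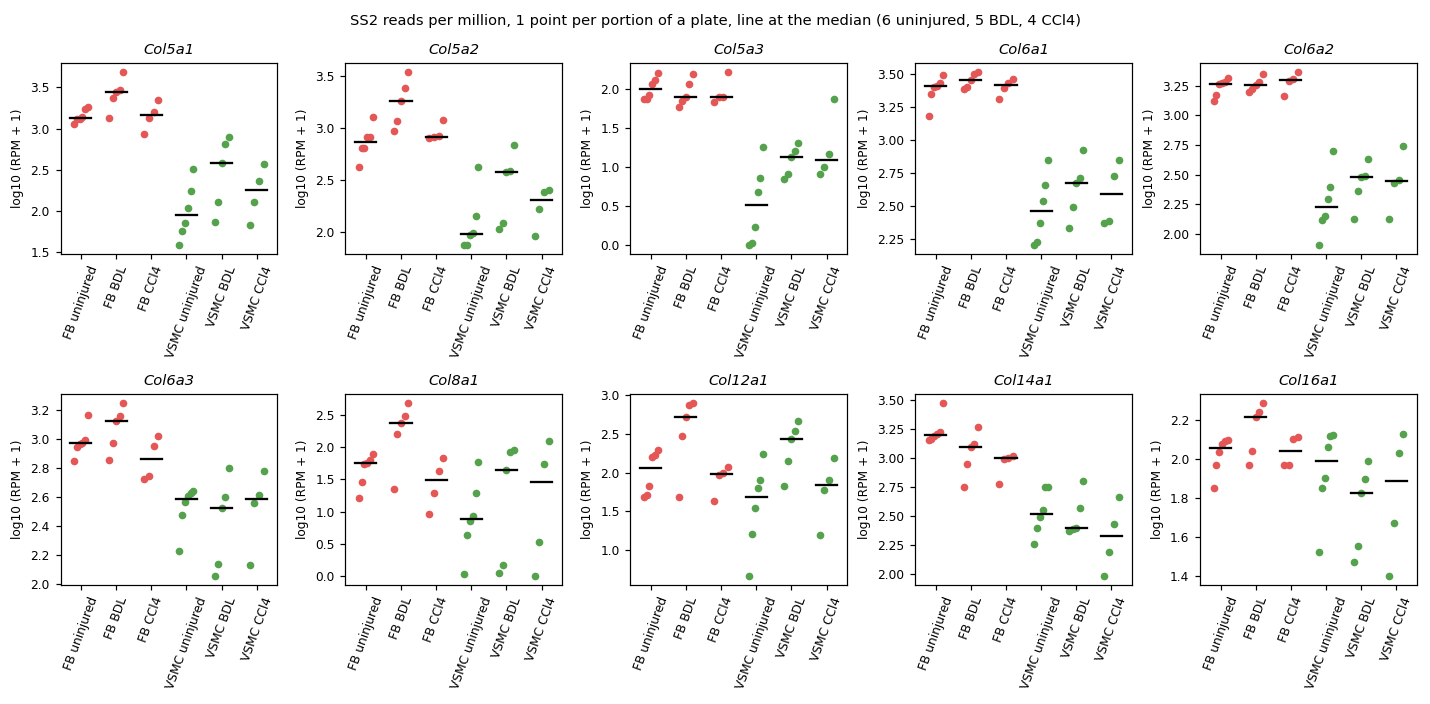
Reads per 1000000 reads (log10 of RPM + 1) of each member in FB-marker (red) and VSMC-marker (green) wells, 1 point per portion of a plate (6 uninjured, 5 BDL, 4 CCl4) with a line at the median. The uninjured FB and VSMC points are apart for 7 members and overlap for Col8a1, Col12a1 and Col16a1. The share of all genes with points apart was not counted.

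The response to injury was then tested in SS2 wells of each class, with plate as a term and 6 uninjured, 5 BDL and 4 CCl4 portions. With that term the uninjured portion of plate 6, which had no injured portion beside it, did not inform the injury folds. The BDL folds rested on the uninjured portions of plates 1, 2 and 4, and the CCl4 folds on those of plates 3 and 5. No member was called by edgeR in BDL FBs (0.0072% of 13882 genes were higher and 0.0216% lower), although 5 of 10 had an unadjusted p under 0.05 and DESeq2 called 2, Col5a1 and Col5a2. None was called in CCl4 FBs either (0.0144% of genes higher and 0% lower), and none had an unadjusted p under 0.05 or a DESeq2 call. In BDL VSMCs no member was called by edgeR (0% of 13458 genes higher and 0% lower), 2 had an unadjusted p under 0.05 and DESeq2 called 1, Col12a1. In CCl4 VSMCs no member was called by either tool or had an unadjusted p under 0.05 (0% of genes higher and 0% lower). The shares of all genes with an unadjusted p under 0.05 or a DESeq2 call were not counted, so those member counts have no background. Whether a mouse gave wells to more than 1 plate is not given in the labels, so portions may not all be separate mice.

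In FBs, Col5a2 was at 424 to 1278 RPM (median 739) in uninjured portions, 932, 2460, 1831, 3490 and 1165 RPM after BDL, and 1194, 832, 804 and 825 RPM after CCl4. All 5 BDL portions were above the uninjured portion of their own plate, by 0.54 to 3.04 on the log2 scale, but BDL and uninjured portions overlapped over plates. The portions at 2460 and 3490 RPM held 12 and 9 FB wells, the fewest of the 5. The BDL log2 fold change was 1.66 ± 0.45 (adjusted p = 0.31 by edgeR), against -0.18 ± 0.47 for CCl4 (adjusted p = 1 by edgeR).

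Col5a1, Col6a1 and Col16a1 were likewise above the plate's own uninjured portion in 5 of 5 BDL portions of FBs, with log2 fold changes of 1.02 ± 0.35 (adjusted p = 0.45 by edgeR), 0.48 ± 0.23 (adjusted p = 0.55 by edgeR) and 0.71 ± 0.29 (adjusted p = 0.51 by edgeR). Col8a1 and Col12a1 were above it in 4 of 5, with 1.92 ± 0.87 (adjusted p = 0.53 by edgeR) and 1.66 ± 0.69 (adjusted p = 0.51 by edgeR). Col8a1 was at 158, 299, 487, 21.7 and 233 RPM after BDL and at 15.0015 to 76.9 RPM (median 55.0) in uninjured FBs, and the plate 2 portion with 9 FB wells was the one at 21.7 RPM. Col14a1 was below the plate's uninjured portion in 4 of the 5 BDL portions, with -0.42 ± 0.34 (adjusted p = 0.73 by edgeR), and Col5a3 in 3 of 5, with -0.21 ± 0.41 (adjusted p = 0.91 by edgeR). Plates 1 and 2 each hold a pair of BDL portions that share 1 uninjured portion. The share of all genes above the plate's uninjured portion in 5 of 5 BDL portions was not counted, in FBs or in VSMCs.

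Plates 3 and 5 each hold a pair of CCl4 portions that share 1 uninjured portion. After CCl4, Col14a1 was below the uninjured FBs of the same plate in 4 of 4 portions. It was at 1039.6, 1005, 592 and 983 RPM, against 1438 to 3004 RPM (median 1581) in uninjured portions. For Col14a1 the CCl4 and uninjured FBs thus did not overlap, though the share of all genes without overlap was not counted. Its log2 fold change was -0.75 ± 0.39 (adjusted p = 1 by edgeR, unadjusted p = 0.079). In 10x FBs after 6 weeks of CCl4 its fold was 1.01, as given above. Col6a1, higher in 10x FBs and VSMCs at 6 weeks, was above the plate's uninjured portion in 2 of 4 CCl4 portions of FBs. Its log2 ratios to that portion ran from -0.31 to 0.19. In VSMCs Col6a1 was also above it in 2 of 4, with log2 ratios from -1.59 to 1.58.

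In VSMCs, Col12a1 was at 3.62 to 175 RPM (median 47.9) in uninjured portions and at 272, 141, 342, 66.4 and 468 RPM after BDL. It was above the plate's uninjured portion in 5 of 5 BDL portions, by 2.56 to 6.21 on the log2 scale, with a log2 fold change of 4.09 ± 1.04 (adjusted p = 0.47 by edgeR). The largest ratio was over 3.62 RPM on plate 2, and BDL and uninjured portions overlapped over plates. After CCl4, Col12a1 was at 80.4, 152, 58.1 and 14.7 RPM, above the plate's uninjured portion in 2 of 4, with -0.73 ± 1.11 (adjusted p = 1 by edgeR). Of the other members in BDL VSMCs, Col5a2 was above it in 4 of 5 portions. Col5a1, Col5a3, Col6a1, Col6a2 and Col8a1 were above it in 3 of 5, Col6a3 and Col14a1 in 2 of 5 and Col16a1 in 1 of 5.

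Clusters of the protocol 1 cells, made without the members among the clustering genes, showed how the members varied within each class. The 13 clusters are named by number and, for 10 of them, by their 3 genes of highest fold. FB clusters were 2 (Tnmd, Thbs4, Sfrp2), 3 (Cxcl13, Grem1, Lect1), 4 (Krtdap, Dact2, Ly6c1), 8 (Flt1, Gpr39, Angptl7), 10 (Cxcl14, Apod, Ret) and 11 (Wif1, Notum, Ctla2a). VSMC clusters were 1 (Bex4, Myl1, Kcnh2), 5 (Dgkg, Fam81a, Rgs4), 12 (Gm26802, Zfhx3, Olfml2a), 7 and 9. Cluster 12 had mixed markers, with a mean FB score of 0.477 beside a VSMC score of 0.621, and a median of 8868 UMIs per cell. The other VSMC clusters had FB scores of 0.0752 to 0.0999 and medians of 3119 to 4843 UMIs. Col6a1 was at 491 CPM in cluster 12. Cluster 6 (Lrat, Acsbg1, Colec11) had HSC genes among its leading genes and was given no cell type, and neither was cluster 13, of which 137 of 165 cells were in the VSMC class and whose Col6a1 level was 395 CPM. Of the 1027 cells of cluster 6, 901 were in the FB class, so values are also given by cluster number.

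Col8a1 varied most among the FB clusters, from 19.2 CPM in cluster 11 and 21.3 CPM in cluster 3 to 206 CPM in cluster 10 and 276 CPM in cluster 2. Col5a3 was at 130 CPM in cluster 10 and at 14.1 to 40.5 CPM in the other FB clusters. Col14a1 had its lowest FB level in that same cluster, 256 CPM, and its highest in cluster 8, 993 CPM, while Col12a1 went from 9.27 CPM in cluster 3 to 56.4 CPM in cluster 11. Col5a1 and Col5a2 had narrow ranges there, 111 to 138 CPM and 181 to 260.3 CPM. Col16a1 was at 83.3 CPM in cluster 11, 45.9 CPM in cluster 8 and 22.4 to 33.1 CPM in the other FB clusters. In cluster 6 it was at 50.3 CPM. Clusters 6, 8 and 11 were thus above the lowest HSC level of Col16a1, 45.5 CPM. Cluster 6 lay just below the FB clusters for Col6a1, at 604 CPM against 613 to 921 CPM, and among them for Col6a3, at 376 CPM against 160.2 to 395 CPM.

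Between uninjured and 6-week libraries, 9 clusters had at least 100 cells in both. Col6a1 was higher at 6 weeks in all 9, by 1.25-fold in cluster 4 to 1.91-fold in cluster 10, although its interval included 1 in cluster 7 (0.910 to 1.95). The clusters are parts of the same pair of libraries and not replicates, and the share of all genes higher in all 9 was not counted. Col8a1 was 2.60-fold lower in cluster 4 (224 to 86.4 CPM), while in cluster 2, the highest, it was 1.23-fold (1.13 to 1.35) higher, in cluster 6 1.95-fold (1.52 to 2.50) higher and in cluster 8 1.49-fold (1.15 to 1.93) higher. In cluster 11 it went from 31.1 to 1.59 CPM, the latter from 1 UMI, and in clusters 3 and 10 its interval included 1. The FB clusters thus differed in direction although Col8a1 was lower in the class as a whole. Clusters 2 and 4 held 948 and 929 uninjured cells and 475 and 379 cells at 6 weeks. Clusters 8, 10 and 11 held 421, 439 and 173 uninjured cells and 354, 135 and 100 at 6 weeks. Cluster 3, with low Col8a1 and Col12a1, went from 552 to 803 cells. The part of this change of mix in the FB class folds was not tested. Col12a1 was lower in clusters 3 (2.14-fold), 4 (2.43-fold) and 6 (1.69-fold), and its interval included 1 in clusters 2, 8, 10 and 11. Among VSMCs, clusters 5 and 9 came nearly all from the 6-week library (1111 and 589 cells, against 38 and 56 uninjured) and had Col12a1 levels of 15.95 and 23.2 CPM, against 3.24 and 5.08 CPM in clusters 1 and 7.

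**Figure D4:**
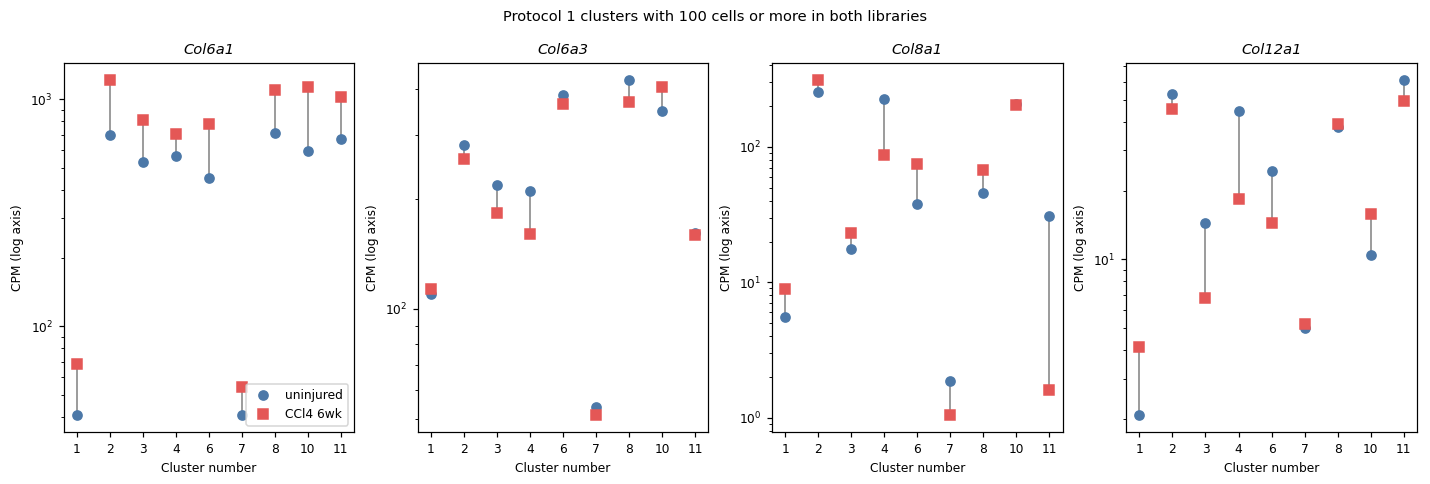
CPM (log axis) of Col6a1, Col6a3, Col8a1 and Col12a1 in the 9 protocol 1 clusters with at least 100 cells in both libraries, uninjured (blue circles) and CCl4 for 6 weeks (red squares). Col6a1 lay higher at 6 weeks in all 9 clusters, while Col8a1 was lower in cluster 4 and higher in clusters 2, 6 and 8. The clusters are parts of the same pair of libraries and not replicates.

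HSCs were also divided by a score of portal minus central genes from the study (52 and 29 genes), and the classes are called portal and central here. The position of these cells in the lobule was not measured. How far injury itself shifts the score was not tested. The study chose these genes on the same cells, Col14a1 is among its portal genes, and all members were left out of the score. Portal cells made up 43.8% of uninjured, 23.4% of 72 h and 30.7% of 6-week HSCs. Col8a1 was at 23.7 CPM in portal and 3.76 CPM in central uninjured HSCs, a fold of 6.30 (5.05 to 7.91), then at 30.4 and 26.8 CPM at 72 h (1.13, 1.03 to 1.25) and at 83.9 and 19.9 CPM at 6 weeks (4.21, 3.85 to 4.62). The portal excess was thus small at 72 h, when the central level was 26.8 CPM. Col5a3 was portal-high in each library, by 2.09-fold (1.64 to 2.68), 2.51-fold (2.14 to 2.95) and 2.00-fold (1.55 to 2.59). Its portal and central levels were 8.75 and 4.18 CPM uninjured, 14.4 and 5.74 CPM at 72 h, and 7.38 and 3.68 CPM at 6 weeks. The uninjured and 6-week levels were thus under the limit of 10 CPM for a call.

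Collagen VI lay on the central side of the score. Col6a3 was 1.25-fold lower in portal than in central cells when uninjured, 2.50-fold lower at 72 h (219 against 546 CPM) and 2.46-fold lower at 6 weeks (139 against 340.4 CPM). Col6a1 and Col6a2 were within 1.07-fold in uninjured HSCs and lower in portal cells by 1.47-fold and 1.58-fold at 72 h and by 1.63-fold and 1.70-fold at 6 weeks. Col12a1 was 2.81-fold lower in portal cells at 72 h (9.51 against 26.7 CPM), and its uninjured ratio rested on 7 and 21 UMIs. The median depth was 9866.0 UMIs in portal and 12016.0 in central cells at 72 h, and its part was not tested.

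Cells were then ordered within each HSC library by the share of their UMIs from Col1a1, Col1a2 and Col3a1, the genes of the major fibrillar collagens, and divided into quintiles. At 72 h, from the lowest to the highest quintile, Col12a1 was at 2.19, 7.54, 18.4, 28.3 and 51.4 CPM, Col6a3 at 129, 280.4, 446, 570.0 and 850 CPM, and Col5a2 at 163, 246, 342, 437 and 678 CPM. Col6a1 went from 138 to 394 CPM and Col6a2 from 91.2 to 323 CPM over the same quintiles, and Col8a1 from 14.0 to 59.6 CPM. Col14a1 was nearly level, at 988, 997, 947, 931 and 1057 CPM.

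In uninjured HSCs, Col6a3 went from 92.3 to 170.3 CPM, Col8a1 from 5.90 to 26.9 CPM, and Col12a1 had 0 UMIs in the lowest quintile, which allows up to 0.403 CPM, and 2.18 CPM in the highest. At 6 weeks Col6a3 went from 138 to 501 CPM and Col12a1 from 0.521 to 15.2 CPM, while Col8a1 was level at 41.3 and 42.5 CPM and Col14a1 at 1556 and 1503 CPM. Median depths of the quintiles ranged from 9897.5 to 13095.0 UMIs at 72 h. These are orderings of cells within 1 library each and carry no test.

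**Figure D5:**
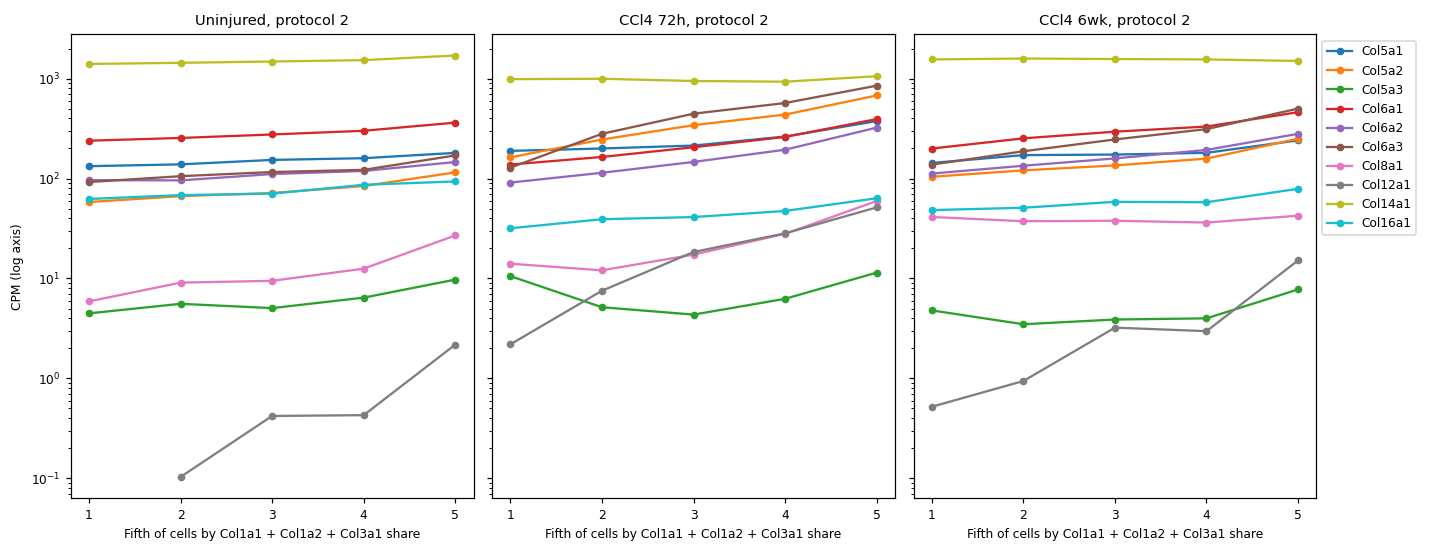
CPM (log axis) of the 10 members in quintiles of HSCs ordered by the summed share of Col1a1, Col1a2 and Col3a1, from 1 (lowest) to 5 (highest), in each protocol 2 library. At 72 h Col12a1 went from 2.19 to 51.4 CPM and Col14a1 stayed between 931 and 1057 CPM; a quintile with no UMI is not drawn.

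Dividing cells made up 0.584% of uninjured, 17.2% of 72 h and 1.41% of 6-week HSCs. At 72 h they had lower levels than other HSCs of Col6a1 (188 against 256 CPM, 1.36-fold), Col6a2 (1.37-fold), Col12a1 (1.30-fold), Col14a1 (1.25-fold) and Col6a3 (1.20-fold), and Col5a2 was within 1.07-fold.

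The major fibrillar genes gave a scale for these changes. At 72 h all 3 were past 2-fold higher in HSCs, Col1a1 by 10.7-fold (201 to 2151 CPM), Col1a2 by 4.79-fold and Col3a1 by 3.18-fold, and at 6 weeks only Col1a1 was, by 3.23-fold. None of the 3 passed 2-fold in FBs or VSMCs at 6 weeks, and all 3 were higher in FBs than in VSMCs, by 5.68-fold to 6.07-fold. Among 16 other genes of the same collagen subfamilies, 1 was absent from the files and few reached 10 CPM. Col27a1, a fibrillar collagen, was the only one tested in HSCs and was higher by 2.57-fold at 72 h and 2.099-fold at 6 weeks, and Col6a5, Col6a6, Col8a2 and Col27a1 were higher in FBs than in VSMCs by 9.76-fold, 6.37-fold, 3.85-fold and 2.51-fold.

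Of 10 receptors for collagen, 6 had enough UMIs for a call in HSCs, 6 in FBs and 8 in VSMCs, and none of these passed 2-fold with CCl4. Below that limit, Itga11 was at 0.927 CPM in uninjured HSCs and 4.50 CPM at 72 h. Between the classes, 3 were higher in FBs than in VSMCs (Ddr2, Antxr2 and Itga11), with 5 lower (Itga1, Itga10, Itgb1, Ddr1 and Cspg4). Antxr2 encodes a collagen VI receptor and stood at 63.7 CPM in FBs and 19.4 CPM in VSMCs. In the SS2 test the same 8 genes were called in the same directions. Among 11 genes of small proteoglycans and collagen processing, 10 were tested at 72 h, of which only Fmod was past 2-fold higher, from 0.302 to 27.2 CPM, and Dcn and Tnxb were lower by 2.41-fold and 2.27-fold. Pcolce2, not tested there, went from 0.0647 to 5.32 CPM. In VSMCs Fmod was 4.64-fold lower at 6 weeks, and 9 of the 10 tested were higher in FBs than in VSMCs.

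The genes with patterns most like 3 members were found by Pearson correlation of log2(CPM + 1) over the 7 groups among 7530 genes with at least 20 CPM in 1 group. They were B4galt7 (0.994), Creld2 (0.991) and Uap1l1 (0.983) for Col6a1, Fam171a2 (0.977), Clip3 (0.975) and Figf (0.970) for Col12a1, and Ly96 (0.998), Lamb1 (0.994) and Grn (0.994) for Col14a1. With 7 groups that share libraries these values are descriptions. Among the members themselves, Col5a2 and Col6a3 had the highest such correlation (0.976), and Col12a1 and Col16a1 the lowest (-0.57).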

How the data were processed

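Members and lists were chosen with earlier results of these data known. The deposited 10x files hold UMI counts per gene and cell, made by the authors with Cell Ranger 2.1.0 on mm10. The deposited SS2 files hold read counts per gene and well, aligned by the authors with STAR to mm10 with eGFP and ERCC sequences.

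Cells with under 300 genes or over 30% mitochondrial UMIs and genes seen in under 3 cells were left out, as were SS2 wells beyond 3 median absolute deviations. Doublets were called with Scrublet (scanpy 1.11.5), left in, and left out as an alternative. UMIs were summed per library and marker class, and folds against 0 UMIs used 3 UMIs in its place. Cells within 0.1 of the class boundary, thinning to 2000 UMIs, TMM, limits of 50 CPM and 1.5-fold, and classes from clusters (Leiden, resolution 0.8, 2000 variable genes, 10 components, 30 neighbours; leidenalg 0.10.2) were alternatives. SS2 counts were summed per class and portion and tested with edgeR 4.0.16 (portion or plate as a term) with DESeq2 1.42.0 as an alternative. Scripts were tested on simulated data. Intervals were exact (scipy 1.17.1) and cover counting error only. All members were named. Positions are from GRCm38. Some leading genes of 3 clusters are not reported here.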

Additional observations from a re-analysis of the deposited data

Results flagged for a closer look

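In SS2, 9 of 60 groups of 4 to 6 portions had a portion far from the others of its group. For independent groups of normally distributed values, chance gives about 1 in 20. The groups of different genes share portions and RPM was not put on a log scale, so that rate may not hold here. In FB wells, Col14a1 was lowest after CCl4 in a portion of plate 5 (592 RPM, next 983 RPM) and highest among uninjured portions in plate 6 (3004 RPM, next 1669 RPM). Also in FB wells, Col6a3 was highest among uninjured portions in plate 5 (1468 RPM, next 981 RPM), and after CCl4 the first portion of plate 3 was highest for Col5a2 (1194 RPM, next 832 RPM) and Col5a3 (168 RPM, next 79.0 RPM). In VSMC wells that portion was also highest for Col5a3 (74.4 RPM, next 13.7 RPM), the uninjured portion of plate 5 for Col5a2 (419 RPM, next 142 RPM) and Col8a1 (58.9 RPM, next 18.6 RPM), and that of plate 1 for Col5a3 (17.3 RPM, next 6.18 RPM). The 12 control wells of the plates, which no comparison used, held 101 reads of the members among 87473 reads, in 11 of the wells.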

How the results depend on the processing

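The count of members past 2-fold in HSCs at 72 h, 4, was 2 with a limit of 50 CPM and 8 at 1.5-fold. Of those 8, Col14a1 and Col16a1 were lower and the others higher. The count at 6 weeks, 2, was 1 with the limit of 50 CPM, 4 at 1.5-fold, and 3 with TMM (Col5a2 added). In FBs and VSMCs at 6 weeks, 0 in the report, it was 3 at 1.5-fold in FBs (Col6a1 higher, Col8a1 and Col12a1 lower) and 1 in VSMCs (Col16a1 lower), and in VSMCs also 1 with cells thinned to 2000 UMIs and 1 with classes from clusters, both times Col12a1 higher. In SS2, the 0 members called after BDL became 2 with DESeq2 and 3 without a filter on low counts in FBs, and 1 and 3 in VSMCs. With TMM, 4.20% of all genes were past 2-fold higher at 6 weeks in HSCs and 0.762% lower. For the other settings that moved these counts, the shares of all genes called were not counted. Without 1 portion at a time, the FB against VSMC calls ranged from 7 to 8 and the injury calls from 0 to 0. Without the pairing of FB and VSMC wells by portion (no replicate block), 7 members were called. Leaving out cells with more stellate markers, chosen after seeing the data, gave 0 in FBs, 0 in VSMCs and 9 for FBs against VSMCs. It took out only 28 FBs and 17 VSMCs of the uninjured library and 10 FBs and 21 VSMCs of the 6-week library. Most of the 901 FB-class cells of cluster 6 therefore stayed in. No called value changed sign. Of 1320 values of single genes under an alternative, 1245 kept their side of the threshold or, where no test was made, moved by less than their counting interval, 62 values without a test moved by more, and 13 passed the threshold only in the alternative. Depth limits Col12a1 in uninjured HSCs (28 UMIs) and Col5a3 in HSCs and VSMCs.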
